A study of Mus musculus with 60 samples.

Results

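The T cell receptor alpha chains of donor CD8+ T cells taken from the gut were compared with those of donor CD8+ T cells taken from the liver. The members were chosen by their labels, as the libraries of CD8 T cells and of the alpha chain whose tissue was gut or liver, which gave 12 of the 60 libraries of the series, 6 from gut and 6 from liver. The recipients were lethally irradiated WT BALB/c mice given T cell-depleted bone marrow from WT C57BL/6 donors together with CD90.2+ T cells from C57BL/6 donors of 3 genotypes. These donors were WT, STAT3ko (Stat3 fl/fl with CD4-Cre, so that STAT3 is lost in the T cells and not in other cells) or STAT3koPD-1ko (the same with PD-1-/-, which is lost in every cell of the donor). All recipients therefore shared the host strain, the irradiation and the WT marrow, and only the donor T cells differed. On day 6 after hematopoietic cell transplantation (HCT) the cells sorted as H-2Kb+TCRβ+CD8+ were taken from each tissue, each library holding lymphocytes pooled from 3 recipients, and each genotype gave a library numbered 1 and a library numbered 2 in each tissue. The question set by the comparison was whether the receptors of the same donor T cells differed between 2 target tissues of graft-versus-host disease. One CD8 alpha library per genotype from spleen before HCT, titled naive, is given as background. No label says that the gut and liver libraries of a number came from the same recipients. A p-value here measures the spread between these pooled samples, which may be in part technical.

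The alpha chain of the receptor is made by joining 1 variable segment (TRAV) to 1 joining segment (TRAJ) in a thymocyte. Bases are trimmed from both ends and others are added at the join, and the joined stretch encodes the third complementarity-determining region (CDR3), the loop that lies over the peptide in an MHC molecule. There is no D segment in an alpha chain, so a CDR3 with few added bases is almost wholly germline sequence and can arise in many mice. In the mouse the TRAV segments lie on chromosome 14 upstream of the TRAJ segments, and large parts of the TRAV array are duplicated, which the names mark with D and N (TRAV10, TRAV10D and TRAV10N). A cell can rearrange the same allele again, deleting the first join and using a TRAV segment further upstream with a TRAJ segment further downstream. A clonotype below is 1 CDR3 amino acid sequence with its TRAV and TRAJ, and its usage or frequency is a percent of the reads listed for the library. Usage counts reads of RNA, so fewer cells with a segment and less RNA per cell cannot be told apart.

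The sequences on which the comparison turns are shown first. The germline TRAJ segments, read from GRCm38 (chromosome 14, plus strand), are 4 of the 5 with the lowest p in the comparison of TRAJ usage below, and they show how much of the CDR3 a TRAJ brings. Capitals mark the part inside the CDR3, up to the closing phenylalanine codon.
TRAJ52, chr14:54165316-54165381: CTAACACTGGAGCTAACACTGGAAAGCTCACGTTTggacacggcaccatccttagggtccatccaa
TRAJ39, chr14:54179962-54180024: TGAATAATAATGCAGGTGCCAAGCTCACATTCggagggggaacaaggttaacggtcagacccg
TRAJ47, chr14:54171800-54171856: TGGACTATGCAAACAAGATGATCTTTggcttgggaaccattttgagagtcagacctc
TRAJ12, chr14:54206553-54206610: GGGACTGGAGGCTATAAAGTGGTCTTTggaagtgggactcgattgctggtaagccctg
TRAJ52 brings up to 35 bases to a CDR3 and TRAJ39 up to 32, whereas TRAJ47 brings up to 26 and TRAJ12 up to 27. The clonotypes that used them had mean CDR3 lengths of 15.30, 13.78, 13.01 and 13.20 residues in that order, counted from the opening cysteine to the closing phenylalanine or tryptophan.

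The nucleotide CDR3s below belong to the 3 clonotypes with the highest mean frequency in gut, of which the first 2 also had the highest in liver, and to the 6 with the lowest p between gut and liver. Each is the sequence that the joined table gives for the clonotype, and capitals mark the bases that match the germline TRAJ without a break from the 3′ end.
TRAV16N TRAJ22, first: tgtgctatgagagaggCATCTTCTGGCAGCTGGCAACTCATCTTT
TRAV16N TRAJ22, second: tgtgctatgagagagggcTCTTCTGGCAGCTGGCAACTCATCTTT
TRAV14D-1 TRAJ22: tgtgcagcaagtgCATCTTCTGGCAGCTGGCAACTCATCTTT
TRAV3-3 TRAJ47: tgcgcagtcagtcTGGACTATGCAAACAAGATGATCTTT
TRAV8D-1 TRAJ22: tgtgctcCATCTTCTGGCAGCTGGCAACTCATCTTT
TRAV12N-3 TRAJ57: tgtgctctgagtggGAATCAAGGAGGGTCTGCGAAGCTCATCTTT
TRAV10D TRAJ9: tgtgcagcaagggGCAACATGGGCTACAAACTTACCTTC
TRAV7-5 TRAJ12: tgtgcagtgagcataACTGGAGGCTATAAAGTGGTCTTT
TRAV12N-3 TRAJ12: tgtgctctTGGAGGCTATAAAGTGGTCTTT
The first 2 differ only at the join, before the same TRAJ22 stretch, and both open with the TRAV16N bases tgtgctatgagagag.

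The table listed 59365 CD8 alpha clonotypes, of which 59208 were seen in the 12 day 6 libraries. A clonotype entered it by being seen in 2 or more of 18 joined libraries, so that the listed share of a library's reads depended on what the other libraries held. The listed share was 96.6 to 97.9% in the 6 liver libraries and 90.8 to 97.0% in the 3 gut libraries numbered 1, and 79.5 to 80.1% in the 3 gut libraries numbered 2. The numbers of listed clonotypes were 11502 to 16983 in liver, 22270 to 23961 in gut numbered 1 and 10581 to 13746 in gut numbered 2. The gut libraries of the 2 numbers thus did not overlap in either measure. Read depth was not given, so that no counting error can be attached to a share. The gap between the numbers lay in clonotypes listed in libraries of 1 genotype only, which held 2.80 to 3.57% of the reads in gut numbered 2, 15.6 to 20.3% in gut numbered 1 and 20.3 to 21.97% in liver. Clonotypes listed in libraries of at least 2 genotypes held 75.2 to 77.3% of the reads in the gut libraries and 75.4 to 77.4% in the liver libraries, with means of 76.4% ± 0.719 and 76.3% ± 0.879 (SD, n = 6 each). Clonotypes listed in at least 2 genotypes are called multi-genotype clonotypes below. Results are also given over these alone, an alternative chosen after the data were seen, and within each number.

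**Figure D1:**
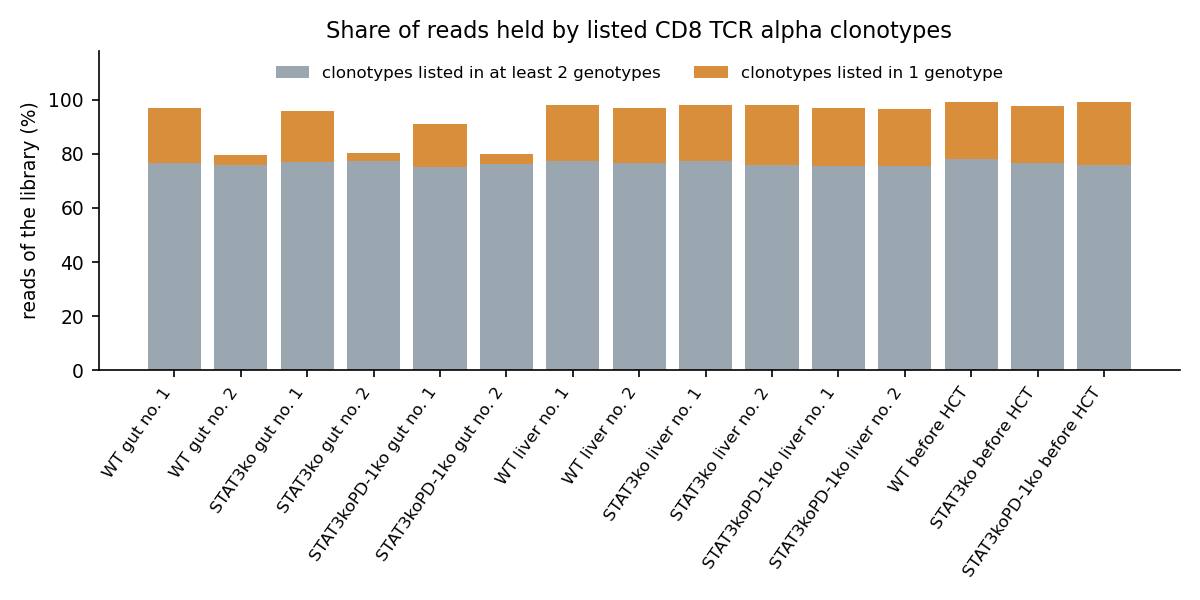
Percent of reads per library that fall in clonotypes of the joined table, split into clonotypes listed in libraries of at least 2 genotypes and of 1 genotype only, for the gut, liver and before HCT libraries of each genotype and number. The share in at least 2 genotypes lies between 75.2 and 78.2% in all 15 libraries, and the share in 1 genotype is low, at 2.80 to 3.57%, only in the 3 gut libraries numbered 2.

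Counted over all reads, gut libraries numbered 1 overlapped more with the liver of their genotype than gut libraries numbered 2 did. For each listed clonotype the smaller of its shares of all reads in 2 libraries was taken, and these were added up as the overlap of the 2. These shares were not divided by the listed share, so that an overlap cannot exceed it. The listed share was lowest in gut numbered 2, at 79.5 to 80.1%. The overlap was 34.9 to 45.4% between the gut and liver libraries numbered 1 of a genotype and 37.8 to 45.2% between gut numbered 1 and liver numbered 2. It was 19.1 to 26.9% between gut numbered 2 and either liver library of the same genotype, and 22.2 to 26.9% between gut and liver numbered 1 of different genotypes. Gut numbered 2 overlapped on average by 21.9% with liver numbered 1 and by 23.99% with liver numbered 2 of its genotype, and by 22.2% and 23.9% with those of other genotypes. The overlap covers only clonotypes that the join kept for being seen in 2 or more libraries. The 2 liver libraries of a genotype overlapped by 19.5 to 25.95%, less than each of them overlapped with gut numbered 1, and the 2 gut libraries by 25.2 to 29.4%. The library before HCT overlapped by 45.1 to 57.4% with liver numbered 1 and by 16.8 to 21.4% with liver numbered 2 of its genotype. With gut of its genotype it overlapped by 27.0 to 32.1% for number 1 and by 16.2 to 19.5% for number 2. A number therefore did not mark a pair of tissues alone, and liver numbered 1 stood nearest to the library before HCT. What these overlaps come from was not tested.

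The 962 clonotypes listed in all 12 day 6 libraries held 26.003% of the gut reads and 24.1% of the liver reads on average. Clonotypes listed in exactly 2 of the 12 held 13.7% and 18.03%. The repertoires thus joined a small set of chains found everywhere to a long list of chains each seen in few libraries.

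TRAV16N was the most used segment in every library, and TRAV usage differed between gut and liver for a small set of other segments. With limma on log2(percent + 0.1) and genotype as a term, 5 of the 41 TRAV segments whose usage averaged 0.5% or more passed an adjusted p below 0.05, 12.2% of those tested, with 3 higher and 2 lower in gut. Without adjustment, 14 passed a p below 0.05, of which 8 were higher and 6 lower. The 41 segments had a median log2 difference of 0.08, with 26 above 0 and 15 below. The split depended on the division by the listed share, which was lowest in gut numbered 2. On the reads as deposited, without that division, 4 of 38 segments passed and all 4 were lower in gut, and the median log2 difference was −0.05, with 14 above 0. TRAV9-2 then passed at −0.69 (limma adjusted p = 0.0258), together with TRAV16N at −0.36 (0.0258), TRAV7N-6 at −0.46 (0.0258) and TRAV5-4 at −0.33 (0.0469), and these last 3 are named after their values were seen. None of the 3 segments called higher passed without the division, TRAV6-7-DV9 being at 0.31 (limma adjusted p = 0.0612), TRAV10D at 0.27 (0.169) and TRAV14D-2 at 0.10 (0.606). TRAV6-1, at 0.366% and 0.620%, fell under the usage minimum there. The calls below are therefore of usage relative to the other listed reads. The calls were lost with each clonotype counted once, where more segments were tested and 0 of 55 passed (limma, smallest adjusted p = 0.131, 10 at a p below 0.05 without adjustment). Among libraries numbered 1 alone 0 of 41 passed (smallest adjusted p = 0.0566, 15 at a p below 0.05 without adjustment), and over clonotypes found in at least 3 libraries 1 of 40 passed, TRAV6-7-DV9 at 0.41 (0.0260).

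TRAV6-7-DV9, which the delta chain can also use, rose in gut. Its lowest, median and highest usage was 1.90, 2.14 and 2.86% in the 6 gut libraries and 1.27, 1.62 and 1.78% in the 6 liver libraries. Every gut library lay above every liver library. The means were 2.23% ± 0.328 and 1.59% ± 0.207 (SD, n = 6 each), a log2 difference of 0.46 (SE 0.104, limma adjusted p = 0.0106), with 0.41 among libraries numbered 1 and 0.52 among those numbered 2. The segment lies at chr14:53709902-53710419 in the part of the TRAV array nearest to the TRAJ segments. Before HCT it ranged from 0.904 to 2.37%, with a mean of 1.58% ± 0.740 (SD, n = 3), so that the highest of these 3 libraries lay above 5 of the 6 gut libraries.

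TRAV14D-2 was also higher in gut in every library, by a smaller step. Its usage was 0.924, 0.928 and 1.03% in gut (lowest, median and highest) and 0.677, 0.789 and 0.852% in liver. The log2 difference was 0.25 (SE 0.0766, limma adjusted p = 0.0450), with 0.32 and 0.18 within the 2 numbers. With each genotype and number as a block, TRAV14D-2 did not pass (limma adjusted p = 0.0632). It is a D copy at chr14:52948568-52949169. The call was lost when any of 11 of the 12 libraries was left out, with log2 differences of 0.21 to 0.27 and limma adjusted p of 0.0510 to 0.118, and held only without WT liver replicate 2 (0.0449).

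TRAV10D, the D copy of TRAV10 at chr14:52810934-52811496, was the third segment that rose. Its usage was 1.25, 1.35 and 1.62% in gut and 0.862, 0.966 and 1.43% in liver. The groups overlapped, since WT liver replicate 2 held the 1.43%, and gut was higher in 5 of 6 pairs of the same genotype and number. The log2 difference was 0.42 (SE 0.119, limma adjusted p = 0.0341). The call held only without STAT3koPD-1ko gut replicate 1, WT liver replicate 2 or STAT3ko liver replicate 2, and leaving out 1 library at a time gave log2 differences of 0.36 to 0.52 and limma adjusted p of 0.00533 to 0.0966.

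TRAV6-1 fell in gut. Its usage was 0.357, 0.388 and 0.503% in gut and 0.516, 0.621 and 0.772% in liver, without overlap. The log2 difference was −0.51 (SE 0.108, limma adjusted p = 0.0106), with −0.46 and −0.56 within the 2 numbers. The 3 libraries before HCT had a mean of 1.09% ± 0.373, so that liver lay between gut and the starting cells. TRAV6-1 is among the most distal segments, sixth from the 5′ end of the array, at chr14:52638515-52638962.

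TRAV9-2, at chr14:53590857-53591514 in the proximal part of the array, fell as well. Its usage was 0.286, 0.442 and 0.583% in gut and 0.537, 0.709 and 0.901% in liver. Gut was lower in 6 of 6 pairs, and 4 gut libraries lay below all liver libraries. The log2 difference was −0.57 (SE 0.153, limma adjusted p = 0.0305), and it was lost without any 1 of WT, STAT3ko or STAT3koPD-1ko gut replicate 2, the 3 liver libraries numbered 1 or STAT3koPD-1ko liver replicate 2, with log2 differences of −0.58 to −0.47 and limma adjusted p of 0.0586 to 0.0794. Before HCT the mean was 0.998% ± 0.284, again the highest of the 3.

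**Figure D2:**
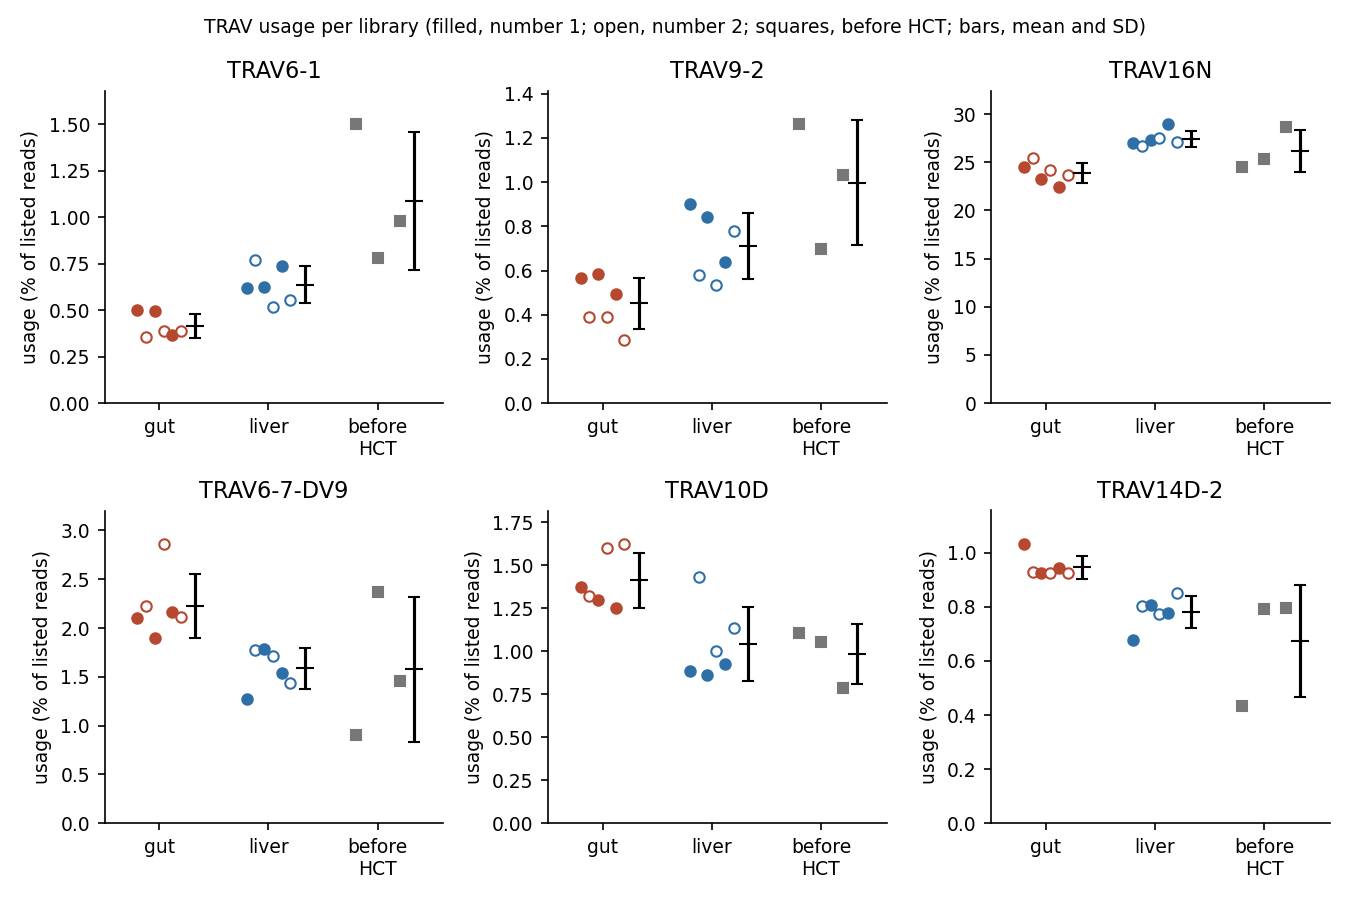
Usage of the called TRAV segments and of TRAV16N in each library, as percent of listed reads, with gut, liver and before HCT (squares) side by side, filled circles for libraries numbered 1 and open circles for those numbered 2. Genotypes run from WT through STAT3ko to STAT3koPD-1ko within a group, and bars give the mean and SD. The 6 gut libraries lie above the 6 liver libraries for TRAV6-7-DV9 and TRAV14D-2 and below them for TRAV6-1 and TRAV16N.

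TRAV16N was named after its values were seen, since it was not among the called segments. Its usage was 22.4, 23.9 and 25.5% in gut and 26.7, 27.2 and 29.0% in liver, so that the groups did not overlap and the means of 23.9% ± 1.05 and 27.4% ± 0.807 (SD, n = 6 each) had a log2 difference of −0.20 (SE 0.0709, limma adjusted p = 0.0749). Its share of multi-genotype clonotypes was 25.1% ± 1.17 against 30.2% ± 1.09, a log2 difference of −0.27 (limma adjusted p = 0.0248). Before HCT the mean was 26.2% ± 2.17.

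Over multi-genotype clonotypes, 5 of 35 TRAV segments passed. TRAV6-7-DV9 had a log2 difference of 0.48 (limma adjusted p = 0.0248) and TRAV14D-2 of 0.30 (0.0262), and these 2 remained. TRAV16N, TRAV10 at 0.36 (0.0248) and TRAV7N-6 at −0.41 (0.0262) were added, and TRAV10 and TRAV7N-6 too are named after their values were seen. TRAV10D had the same direction, at 0.41, with an adjusted p of 0.0807. TRAV6-1, at 0.340% against 0.459%, and TRAV9-2, at 0.392% against 0.553%, fell below the usage minimum and were not tested, with gut lower in both.

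The reads of near-identical copies can be assigned to the wrong copy, so that usage was also summed over the copies of a segment. Then 3 of 33 segments passed. TRAV10 with its D and N copies was at 5.59% ± 0.292 in gut and 4.40% ± 0.409 in liver, a log2 difference of 0.34 (limma adjusted p = 0.00608). TRAV6-1 has no other copy in the sum and kept its values, and TRAV9-2 with its copies had a log2 difference of −0.46 (limma adjusted p = 0.0372). TRAV16 with its copies had −0.20 (0.0547), TRAV14-2 0.26 (0.0550) and TRAV6-7 0.23 (0.123). For TRAV6-7-DV9 and TRAV14D-2, usage of that copy and the split of reads between copies cannot be told apart.

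By family, all 3 tested TRAV10 segments and all 4 tested TRAV14 segments had a log2 difference above 0, with medians of 0.32 and 0.22, and 1 in each family passed. One call in 3 or 4 segments cannot be set apart from the 12.2% over all segments. Without division by the listed share, 3 of 3 and 3 of 4 lay above 0, with medians of 0.16 and 0.08. TRAV14 segments summed to 4.55% in gut and 3.98% in liver, and TRAV7 segments, of which 6 of 8 lay above 0 (3 of 8 without the division) and none passed, to 16.5% and 15.1%. TRAV6, a family with a segment called in each direction, had 2 of 6 above 0 and summed to 11.5% and 11.4%. By copy, 2 of 11 D copies passed, both higher, none of 8 N copies did, and 3 of 22 base copies did, 1 higher and 2 lower. The medians were 0.23, 0.10 and 0.01 against 0.08 over all segments. N copies summed to 42.2% ± 1.49 in gut and 44.5% ± 1.09 in liver, most of it TRAV16N. Of the 2 tested segments shared with the delta locus, both lay above 0 and 1 passed, again too few to read against 12.2%.

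The array was cut into 3 parts of near-equal numbers of segments. The distal part summed to 23.0% ± 0.760 in gut and 22.2% ± 1.21 in liver, the middle part to 44.5% ± 1.24 and 46.8% ± 1.29, and the proximal part to 32.5% ± 0.893 and 31.0% ± 1.04 (SD, n = 6 each). Of the tested segments, 3 of 13 distal ones passed, 0 of 9 middle ones and 2 of 19 proximal ones, against 12.2% over all, in mixed directions. TRAV16N lies in the middle part, at chr14:53351028-53351621.

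Fewer TRAJ than TRAV segments passed. TRAJ52 was the single segment of 41 to pass, 2.44% of those tested, and 4 had a p below 0.05 without adjustment, 1 higher and 3 lower in gut. TRAJ52 usage was 0.921, 1.07 and 1.26% in gut and 1.17, 1.42 and 1.52% in liver. Gut was lower in 6 of 6 pairs, and 5 gut libraries lay below all liver libraries. The log2 difference was −0.36 (SE 0.0828, limma adjusted p = 0.0230). It was −0.18 within number 1 and −0.53 within number 2, the call was lost when any of the 6 libraries numbered 2 was left out (limma adjusted p of 0.0631 to 0.0940), and over multi-genotype clonotypes the difference was −0.27 (limma adjusted p = 0.227). Without division by the listed share the median of the 41 segments moved to −0.15, with 1 above 0, and TRAJ52 was again the 1 that passed, at −0.50 (limma adjusted p = 0.0241). No TRAJ segment passed with each clonotype counted once (limma, smallest adjusted p = 0.781, 0 at a p below 0.05 without adjustment), without the 10 most frequent clonotypes (0.0595, 6) or over clonotypes found in at least 3 libraries (0.0532, 5).

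The next 4 segments by p did not pass. TRAJ39 had means of 1.58% ± 0.246 in gut and 1.98% ± 0.249 in liver and TRAJ57 of 1.06% ± 0.206 and 1.36% ± 0.0869 (limma adjusted p = 0.0784 for both). TRAJ47 had 1.83% ± 0.123 and 1.59% ± 0.274 (0.244), and TRAJ12 4.25% ± 0.469 and 3.796% ± 0.203 (0.422). The TRAJ57 difference was −0.08 within number 1 and −0.62 within number 2. TRAJ47 and TRAJ12, at 0.05 and −0.01 without division by the listed share, had higher means in gut relative to the other listed reads.

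Of these 5 segments, the 3 with lower means in gut (TRAJ57 by its annotated transcript, which is shorter than its annotated span) bring up to 32 or 35 germline bases to the CDR3, and the 2 with higher means up to 26 or 27. Across the 39 tested TRAJ segments whose CDR3 closes with phenylalanine or tryptophan (TRAJ7 and TRAJ44 do not), the log2 difference and the mean CDR3 length of the clonotypes using the segment had a Pearson r of −0.48 and a Spearman rho of −0.46, and with the number of germline bases r was −0.55 and rho −0.51. These are descriptions over segments that share the same 12 libraries. Of the 20 segments with the shortest mean CDR3, 14 had a log2 difference above 0, and of the other 19, 6 did. Over multi-genotype clonotypes, where 38 segments had a value, r was −0.31 and −0.34.

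**Figure D3:**
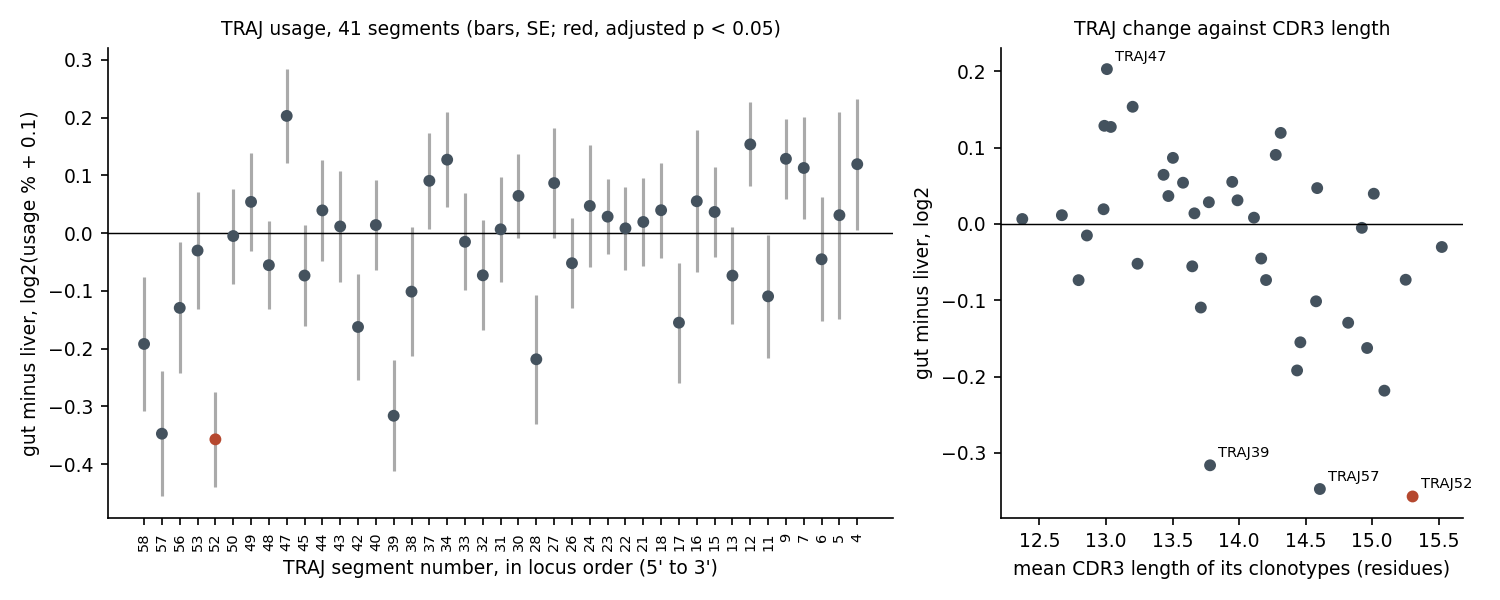
Left, the gut minus liver difference of the 41 tested TRAJ segments on the log2(percent + 0.1) scale, with SE, in locus order from 5′ to 3′. Right, the same difference for 39 segments against the mean CDR3 length in residues of the clonotypes that use them, with the 4 segments of lowest p marked and TRAJ52, the called one, in red. On the right the points fall with length, with r = −0.48 over 39 segments, and TRAJ52 lies among the longest and lowest.

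No V-J pair passed. None of the 397 pairs with a mean of at least 0.05% passed an adjusted p below 0.05 with limma (0.0%), and 31 had a p below 0.05 without adjustment, 23 higher and 8 lower in gut. The smallest adjusted p was 0.625. Among the 8 pairs with the lowest p, TRAV16N with TRAJ57 had 0.265, 0.391 and 0.441% in gut and 0.524, 0.572 and 0.749% in liver, without overlap, and TRAV16N with TRAJ52 had means of 0.445% ± 0.110 and 0.703% ± 0.118 (SD, n = 6 each). Gut was lower in 6 of 6 pairs of libraries for both. TRAV10D with TRAJ23 had 0.0537, 0.0809 and 0.141% in gut and 0.0168, 0.0394 and 0.0477% in liver, also without overlap, and TRAV10N with TRAJ9 had means of 0.314% ± 0.136 and 0.160% ± 0.0906. TRAV12N-3 with TRAJ34 had 0.223% ± 0.0843 and 0.119% ± 0.0416, and TRAV14D-1 with TRAJ12 0.101% ± 0.0765 and 0.0299% ± 0.0125. TRAV2 with TRAJ23 had 0.0392% ± 0.0223 and 0.0768% ± 0.0246, and TRAV3D-3 with TRAJ24 0.0696% ± 0.0293 and 0.111% ± 0.0185.

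No measure of locus position passed. The place of the TRAV segment, counted from 1 at the 5′ end of the 128 annotated segments and weighted by reads, averaged 69.95 ± 0.432 in gut and 70.33 ± 0.894 in liver (exact permutation within genotype, two-sided, p = 0.417, smallest p of this design 0.00926). The place of the TRAJ segment among 60 averaged 33.46 ± 0.430 and 33.05 ± 0.739, higher in gut in 5 of 6 pairs (exact permutation p = 0.0833, adjusted over the 3 locus measures 0.236). The differences were −0.37 and 0.41 places, and without WT liver replicate 1 the second was 0.68 and passed (exact permutation adjusted p = 0.0278). The correlation of the 2 places over reads was −0.289 ± 0.0205 in gut and −0.272 ± 0.0204 in liver (exact permutation p = 0.157, adjusted 0.236), so that distal TRAV went with downstream TRAJ in both tissues. By parts of the arrays, the middle TRAV part with the 5′ TRAJ part (TRAJ61 to TRAJ42) held 8.78% ± 0.551 in gut and 9.92% ± 0.908 in liver, and the proximal TRAV part with the middle TRAJ part (TRAJ41 to TRAJ22) 17.3% ± 0.435 and 16.5% ± 0.508. The 5′ TRAJ part held 20.8% and 21.7% in all, with 4 of its 13 segments above 0 and 1 called lower, beside 22 of 41 above 0 and 2.44% called over all TRAJ segments. The middle part held 50.7% and 50.6%, with 9 of 15 above 0, and the 3′ part 28.5% and 27.7%, with 9 of 13 above 0. Without division by the listed share 1 of the 41 lay above 0, so that these counts hold relative to the other listed reads.

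The mean CDR3 was shorter in gut than in the liver library of the same genotype and number, which is the pair counted here. Its mean length, weighted by reads, was 13.52, 13.57 and 13.66 residues in gut (lowest, median and highest) and 13.65, 13.68 and 13.72 in liver. The means of 13.58 ± 0.0488 and 13.68 ± 0.0238 (SD, n = 6 each) differed by −0.0999 residues, with gut lower in 6 of 6 pairs (exact permutation within genotype, two-sided, p = 0.00926, the smallest this design gives, adjusted over 3 length measures 0.0139). By genotype the difference was −0.108 in WT, −0.0925 in STAT3ko and −0.0992 in STAT3koPD-1ko. Before HCT the mean was 13.66.

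Long CDR3s were fewer in gut, and the call on short CDR3s depended on the test and the libraries. Long CDR3s, of at least 16 residues, made up 7.08, 8.44 and 9.66% of the reads in gut and 9.57, 10.4 and 10.7% in liver, with means of 8.37% ± 1.04 and 10.3% ± 0.395 (exact permutation p = 0.00926, adjusted 0.0139). Short CDR3s, of at most 12 residues, made up 22.4% ± 1.07 and 21.2% ± 0.892 (exact permutation p = 0.0185, adjusted 0.0185). The short share did not pass when tissue was permuted across the 12 libraries rather than within genotype (exact permutation adjusted p = 0.0584) or with each clonotype counted once (a difference of 0.381 percentage points, 0.333). It also did not pass without STAT3koPD-1ko gut replicate 1 or 2 or WT liver replicate 1 or 2, with differences of 0.948 to 1.27 percentage points and exact permutation p of 0.0648 to 0.120. Reads of 13 residues were 23.8% in gut and 22.5% in liver and those of 14 residues 28.6% and 27.5%, whereas those of 15 residues were 16.8% and 18.6%, of 16 residues 6.79% and 7.88% and of 17 residues 1.36% and 2.06%.

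Much of the size of this difference lay in the gut libraries numbered 2. Within number 1 the mean length differed by −0.0568 and within number 2 by −0.143 residues, and the long share by −1.02 and −2.79 percentage points. Chains listed in 1 genotype only, of which the table lists few reads in gut numbered 2, had a mean of 13.95 residues in liver, with 17.3% long. Among multi-genotype clonotypes the mean was 13.54 ± 0.0200 in gut and 13.60 ± 0.0151 in liver, a difference of −0.0642 (exact permutation p = 0.00926, adjusted 0.0139), and the long share 7.49% ± 0.336 and 8.36% ± 0.360 (the same p). There every gut library, at 13.52 to 13.57 residues, lay below every liver library, at 13.59 to 13.62. The short share differed there by 0.849 percentage points (exact permutation p = 0.130) and did not pass. With each clonotype counted once in place of by its reads, neither measure passed, with differences of −0.0472 residues and −1.13 percentage points in the long share (exact permutation adjusted p = 0.333 for both).

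**Figure D4:**
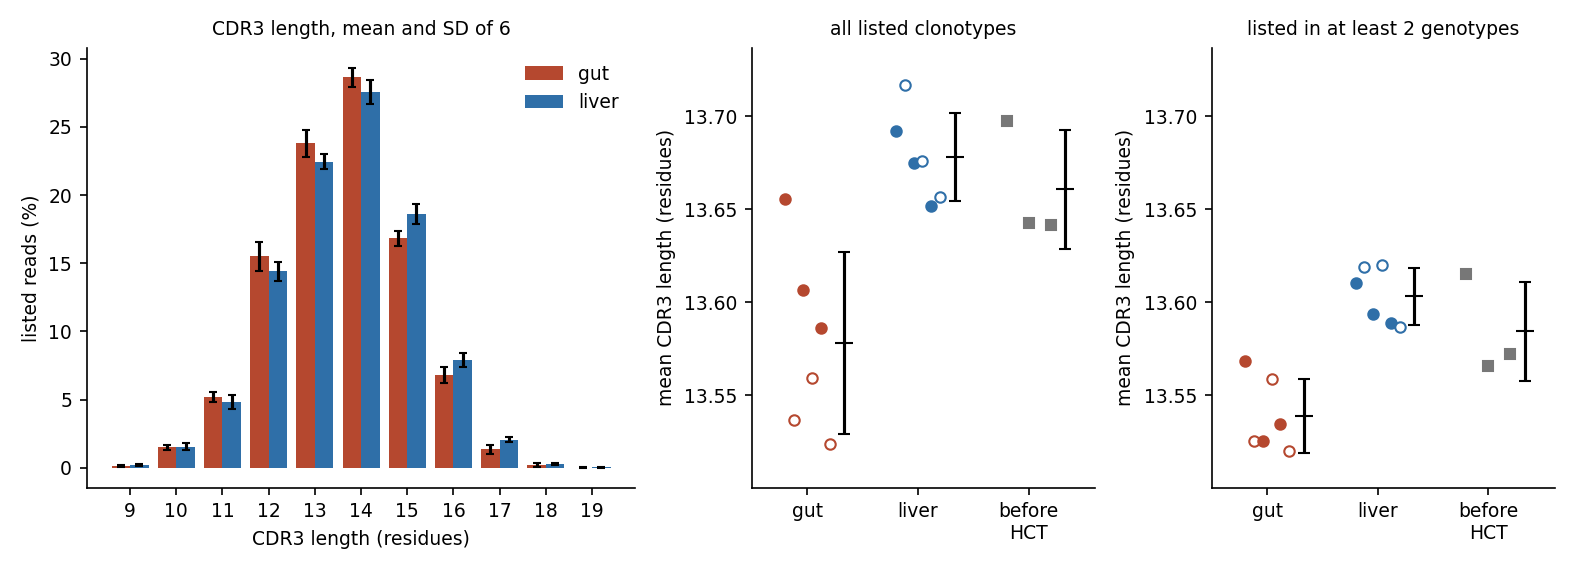
Percent of reads by CDR3 length in residues for gut and liver, as means with SD over 6 libraries each, and the mean length of every library (filled, number 1, open, number 2, squares, before HCT, with group mean and SD) over all listed clonotypes and over those listed in at least 2 genotypes. Gut lies below liver in 6 of 6 pairs of libraries of the same genotype and number. The group means are 13.58 and 13.68 residues over all clonotypes and 13.54 and 13.60 over multi-genotype clonotypes.

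If every TRAV had kept 1 length in both tissues, usage alone would have given −0.0581 residues, TRAJ usage −0.0237 and V-J pair usage −0.0781 of the observed −0.0999. When the length of each CDR3 was taken relative to the mean of its V-J pair, the remaining difference was −0.0219 residues (exact permutation p = 0.241). TRAV16N has long CDR3s, with a mean of 14.66 residues in gut and 14.70 in liver, and the other segments together had 13.23 ± 0.0628 and 13.29 ± 0.0421. Among multi-genotype clonotypes the segments other than TRAV16N had 13.16 in gut and 13.14 in liver, the opposite order.

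The gap between the last TRAV base and the first TRAJ base, as the table's representative nucleotides give it, was 0.720 ± 0.269 bases in gut and 1.05 ± 0.0847 in liver, weighted by reads. It was 0.948 ± 0.103 in gut numbered 1 and 0.492 ± 0.119 in gut numbered 2, and 1.07 before HCT. Restricted to multi-genotype clonotypes it was 0.449 ± 0.0910 in gut and 0.496 ± 0.0880 in liver, a difference within the spread. Reads with no gap were 38.8% in gut and 35.8% in liver, and 41.6% and 41.1% under that restriction.

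Of the 20 residues, glutamate (E) passed. Over the central residues, with 3 left out at each end, E made up 3.82, 3.86 and 4.08% in gut and 4.06, 4.23 and 4.25% in liver, with 5 gut libraries below all liver libraries. The means of 3.90% ± 0.0983 and 4.19% ± 0.0790 (SD, n = 6 each) differed by −0.10 on the log2 scale (limma adjusted p = 0.00996), and this 1 of 20 residues was 5.0% of those tested. With each clonotype counted once no residue passed (limma, smallest adjusted p = 0.530, 1 at a p below 0.05 without adjustment). E did not pass within either number alone, at −0.09 among libraries numbered 1 (limma adjusted p = 0.259) and −0.11 among those numbered 2 (0.0689). Nor did it pass with each genotype and number as a block (limma adjusted p = 0.0732). Within number 1 cysteine (C), named after its values were seen, passed at 0.19 (limma adjusted p = 0.0440), with −0.30 within number 2 (0.103). Over all libraries C had means of 0.0155% in gut and 0.0207% in liver, under the 0.1% pseudocount, so that its log2 values lie near the floor. The next 4 by p were arginine (R), at 6.92% and 7.27% (limma adjusted p = 0.101), and tyrosine (Y), valine (V) and histidine (H), at 6.83% and 6.61%, 1.34% and 1.45%, and 0.320% and 0.363%. None of these 4 passed.

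E and R stand next to each other near the start of most TRAV16N CDR3s. Of its CDR3 reads, 71.2% in gut and 69.8% in liver opened with CAMRE, and 64.6% and 66.6% of all central E lay in TRAV16N CDR3s. In the CDR3s of other segments E made up 1.90% ± 0.225 and 2.03% ± 0.108, and within TRAV16N 9.16% and 8.93%, where gut was the higher. Relative to the shares expected from each library's V-J pairs, no residue passed with limma, and 4 had a p below 0.05 without adjustment. Restricted to multi-genotype clonotypes, E had a log2 difference of −0.12 (limma adjusted p = 0.0206) and R of −0.09 (0.0470).

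The 2 clonotypes with the highest mean frequency were the same in both tissues. The first TRAV16N TRAJ22 sequence above held 0.361% ± 0.137 of the gut reads and 0.408% ± 0.160 of the liver reads, and the second 0.256% ± 0.0578 and 0.340% ± 0.0955 (SD, n = 6 each). Both were listed in all 12 libraries, and both use the most used TRAV. The third was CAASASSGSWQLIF of TRAV14D-1 with TRAJ22 in gut, at 0.220% ± 0.0845 against 0.142% ± 0.0564, and in liver a TRAV16N TRAJ30 chain of 15 residues, at 0.115% ± 0.0925 in gut and 0.197% ± 0.197 in liver. The 3 chains with TRAJ22 share the stretch SSGSWQLIF. The 2 TRAV16N chains differ at 1 residue before it, and the TRAV14D-1 chain also differs at its TRAV-encoded start.

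Other chains led in 1 library each. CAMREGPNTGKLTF (TRAV16N TRAJ27) held 0.489% in WT gut replicate 1 and had a gut median of 0.00827%, and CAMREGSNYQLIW (TRAV16N TRAJ33) held 0.394% in WT gut replicate 2 with a median of 0.0398%. A TRAV16N TRAJ4 chain held 0.667% in STAT3koPD-1ko gut replicate 1, and a TRAV16N TRAJ53 chain 0.741% in STAT3koPD-1ko gut replicate 2, with gut medians of 0.00620% and 0.0494%. In liver, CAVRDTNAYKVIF (TRAV7N-6 TRAJ30) held 0.513% in STAT3ko liver replicate 2 with a liver median of 0.0911%, and the TRAV16N TRAJ30 chain held 0.581% in WT liver replicate 1. No chain reached 1% of a library, and the leading chain used TRAV16N in 11 of the 12 libraries.

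No single chain passed between the tissues. Of the 5028 clonotypes listed in at least 8 of the 12 libraries, limma on log2(percent + 0.001) called 0.0%, with 196 at a p below 0.05 without adjustment, 183 of them higher in gut and 13 lower, and a smallest adjusted p of 0.557. Of the 5028, 3376 had a log2 difference above 0, and the median was 0.32. A clonotype enters by being listed in most libraries, and the table lists fewer chains of 1 genotype in gut numbered 2, so that the median is given as a description only. That no chain passed does not show that none differed.

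The 8 clonotypes with the lowest p were all higher in gut, and in all 8 the gut median was above the liver median. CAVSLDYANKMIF (TRAV3-3 TRAJ47) held 0.00378, 0.0186 and 0.0704% in gut (lowest, median and highest) and 0, 0.00143 and 0.00252% in liver. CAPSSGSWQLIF (TRAV8D-1 TRAJ22) held 0.00530, 0.0223 and 0.0287% in gut and 0, 0.00166 and 0.00586% in liver. For the first of these every gut library lay above every liver library, and for the second the lowest gut library lay below the highest liver library. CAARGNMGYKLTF (TRAV10D TRAJ9) had a gut median of 0.0165% and was listed at 0 in 4 liver libraries. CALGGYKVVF (TRAV12N-3 TRAJ12), a CDR3 of 10 residues, had medians of 0.0182% and 0.000262%. The remaining 4 were a TRAV12N-3 TRAJ57 chain of 15 residues (0.0351% and 0.000989%), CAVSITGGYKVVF of TRAV7-5 with TRAJ12 (0.0165% and 0.000140%), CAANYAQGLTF of TRAV7-5 with TRAJ26 (0.0178% and 0.00112%) and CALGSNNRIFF of TRAV12N-3 with TRAJ31 (0.0309% and 0.00424%). In each of the 6 of them printed above, the TRAJ match runs through most of the CDR3, from 22 to 31 bases, and the CDR3s had 10 to 15 residues.

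No measure of clonality passed. The Shannon effective number, the number of equally frequent clonotypes with the same entropy, was 3982, 6695 and 8668 in gut (lowest, median and highest) and 4031, 5455 and 6860 in liver. The means were 6430 ± 2196 and 5411 ± 1135 (SD, n = 6 each), a log2 difference of 0.20 (exact permutation within genotype, two-sided, p = 0.444, adjusted over 3 clonality measures 0.917). The inverse Simpson number, which weighs frequent clonotypes more, was 2465 ± 850 and 2494 ± 704 (exact permutation p = 0.917). The 100 most frequent clonotypes held 14.3% ± 3.44 and 13.4% ± 2.66 of the listed reads (exact permutation p = 0.667).

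The 2 numbers went opposite ways. The Shannon number was 8353 ± 426 in gut and 4898 ± 1226 in liver among libraries numbered 1 (n = 3 each), a log2 difference of 0.80, and 4506 ± 880 and 5923 ± 964 among those numbered 2, a difference of −0.40. With 3 against 3 within genotype the smallest p is 0.25, and both differences had that p by exact permutation. For multi-genotype clonotypes the log2 difference was 0.39 (exact permutation p = 0.0556, adjusted 0.167). The 3 libraries before HCT had 3047 ± 1022 over listed clonotypes, a value set beside the tissues and not tested.

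**Figure D5:**
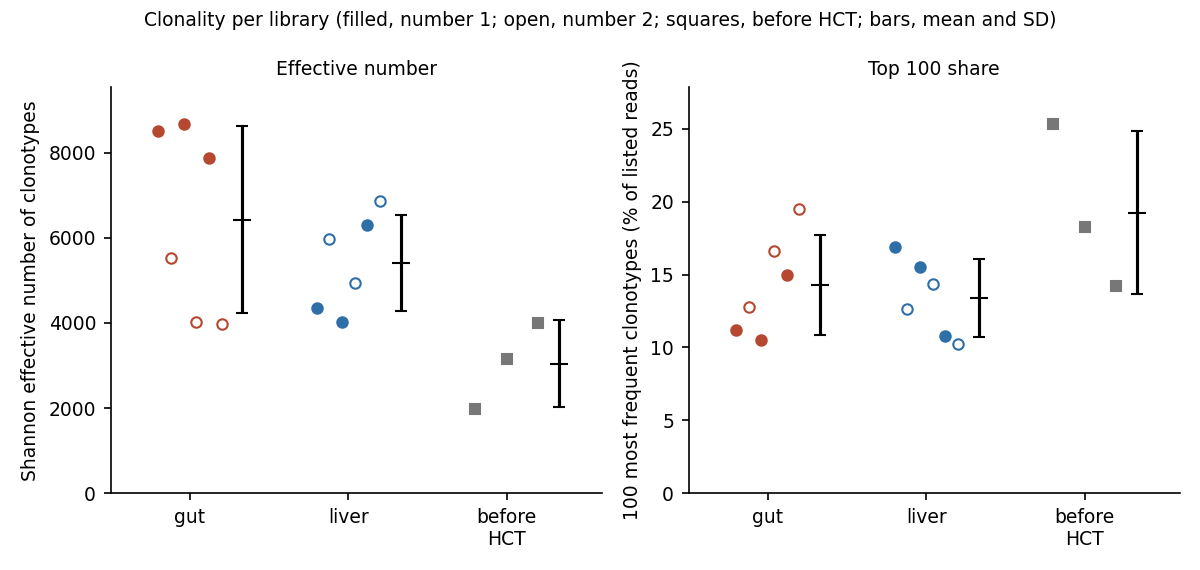
Shannon effective number of clonotypes (left) and percent of listed reads in the 100 most frequent clonotypes (right) for each library, with filled circles for number 1, open circles for number 2, squares for before HCT, and bars for group mean and SD. Gut libraries numbered 1 have a mean Shannon number of 8353 and those numbered 2 of 4506, with the liver mean of 5411 between them.

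The table holds receptor sequences only, so that the sort and the tissue can be checked only by chains that mark other T cells. The invariant chain of natural killer T cells (TRAV11 or TRAV11D with TRAJ18 and 15 residues) held 0 to 0.0415% of gut reads and 0 to 0.0551% of liver reads, and the chain of mucosal-associated invariant T cells (TRAV1 with TRAJ33 and 12 residues) 0.000269 to 0.0204% and 0 to 0.0311%. Both were rare in both tissues, and neither marker tells gut from liver.

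No segment passed a test of whether its gut to liver difference changed with genotype. With 2 libraries per genotype and tissue, this does not show that the genotypes were alike. The limma interaction of tissue and genotype called 0 of 41 TRAV segments (0.0%), with 0 at a p below 0.05 without adjustment and a smallest adjusted p of 0.985, and 0 of 41 TRAJ segments (0.0%), with 1 at a p below 0.05 without adjustment and a smallest adjusted p of 0.369.

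In the alpha chains of the CD4 T cells sorted from the same study, which were joined in a table of their own, 7 of 46 TRAV (1 higher, 6 lower) and 2 of 40 TRAJ segments passed between gut and liver by the same fit. TRAV6-1 was at 0.126% in gut and 0.304% in liver there, under the usage minimum and not tested. TRAV9-2 was at 0.418% and 0.657% (log2 difference −0.64, limma adjusted p = 0.0591) and did not pass. TRAV16N, at 2.34% and 3.65%, was used far less than in CD8 and had a log2 difference of −0.64 (limma adjusted p = 0.00598). The segments called higher in CD8 did not pass in CD4, with TRAV6-7-DV9 at 2.20% and 2.19% (0.01, limma adjusted p = 0.947), TRAV10D at 1.95% and 1.83% (0.07, 0.733) and TRAV14D-2 at 4.64% and 4.56% (0.03, 0.824). TRAV8D-1, named after its values were seen, passed in CD4 at 2.37% and 3.50% (−0.59, limma adjusted p = 0.0300) and had 3.22% and 2.68% in CD8 (0.26, 0.145). The difference between CD4 and CD8 was not tested.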

How the data were processed

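RNA of sorted cells was made into libraries with the Takara SMARTer mouse TCR a/b kit and sequenced on a MiSeq. The authors called CDR3 clones with MiXCR and joined libraries with VDJtools. The deposited values are fractions of each library's reads per clonotype (mm10 in the submitters' notes), with the number of libraries holding it, and read depth is unknown. The table lists clonotypes of at least 2 of 18 joined libraries, of which 15 are in the table and 3 were not analysed here. Fractions were divided by their sum per library and given as percent. TRAV and TRAJ names were matched to the GRCm38 annotation (GENCODE), 108 of 109 TRAV as written and 1 after changing the separator.

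Usage was tested with limma 3.58.1 (R 4.3.3; Python 3.11.15) on log2(percent + pseudocount) with genotype as a term and Benjamini-Hochberg adjustment, with pseudocounts of 0.1% for segments and residues, 0.01% for V-J pairs and 0.001% for clonotypes, and minimum means of 0.5% for segments and 0.05% for pairs. Fold changes are on that scale, which understates those of low values. Single values were tested by exact two-sided permutation of tissue within genotype (216 arrangements). Lengths and residues used CDR3s from C to F or W, 96.3% of clonotypes, and TRAJ7 and TRAJ44, which end in L, fall outside. The steps were tested on simulated data. The segments, residues, pairs and clonotypes named were those past an adjusted p of 0.05, or the 5 lowest p for segments and residues where fewer than 5 passed, the 8 lowest p for pairs and recurrent clonotypes, and the most frequent clonotypes by library and tissue. Members and lists were chosen with earlier results of these data known. The alternatives changed pseudocounts, filters, weighting, copies, the replicate number and single libraries. For the TCR libraries 2 batches are named in the methods, which do not say how they map to the replicate numbers.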

Additional observations from a re-analysis of the deposited data

Results flagged for a closer look

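Of 50 groups of 6 libraries checked for a library far from the others of its tissue, 4 had one, and chance alone gives about 1 in 20. The mean TRAV place was 72.1 in STAT3ko liver replicate 1, above the other 5 liver libraries, and without it the gut minus liver difference was −0.03 places. TRAV6-7-DV9 usage was 2.86% in STAT3ko gut replicate 2, the highest of the gut libraries, and its call held without that library. TRAV14D-2 usage was 1.03% in WT gut replicate 1, against 0.924 to 0.944% in the other 5 gut libraries. TRAJ12 usage was 4.20% in WT liver replicate 2, above the other liver libraries. What sets these libraries apart was not tested.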

How the results depend on the processing

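Depth is unknown, and the join lists gut libraries numbered 2 less fully. The restriction to multi-genotype clonotypes, the single numbers and the interaction refits were chosen after seeing the data. Without division by the listed share 4 TRAV segments passed, 0 higher and 4 lower, against 3 and 2. Called TRAV segments numbered 0 with each clonotype counted once, 1 for clonotypes in at least 3 libraries, 3 with D and N copies combined, 0 within number 1, 3 within number 2 and 2 to 7 on leaving out 1 library. Called TRAJ segments numbered 0 counted once, without the 10 most frequent clonotypes, in at least 3 libraries, among multi-genotype clonotypes and within number 1, 3 within number 2, and 0 to 3 leaving out 1 library. Called residues numbered 0 counted once, given the V-J pair and within number 2, 1 within number 1 (cysteine, not E), 2 among multi-genotype clonotypes, 5 with all residues but the first and last, and 1 to 3 leaving out 1 library. Counted once, the differences in mean length, short share and long share were −0.0472, 0.381 and −1.13 (adjusted p 0.333 each, exact permutation). Given the V-J pair the length difference was −0.0219. The short share differed by 1.24 over all splits (adjusted p = 0.0584, exact permutation), by 0.849 among multi-genotype clonotypes and by 0.948 to 1.62 leaving out 1 library, and its call was lost without STAT3koPD-1ko gut replicate 1 or 2 or WT liver replicate 1 or 2. Within numbers 1 and 2 the 3 measures differed by −0.0568, 1.06 and −1.02, and by −0.143, 1.43 and −2.79, where p cannot go below 0.25. Leaving out 1 library gave length differences of −0.115 to −0.0891 and long shares of −2.16 to −1.64. The mean TRAV place differed by 0.0592 within number 2, against −0.37 in all. The mean TRAJ place differed by 0.282 to 0.679 leaving out 1 library, and passed without WT liver replicate 1 (exact permutation adjusted p = 0.0278). The Shannon difference (log2) was −0.0716 over the 3000 most frequent clonotypes, −0.40 within number 2 and 0.10 to 0.32 leaving out 1 library. The inverse Simpson difference was 0.16 among multi-genotype clonotypes, 0.42 within number 1, −0.51 within number 2 and −0.17 to 0.10 leaving out 1 library. The top 100 difference was −0.795 not divided by the listed share, −0.685 among multi-genotype clonotypes, −2.18 within number 1, 3.89 within number 2 and −0.195 to 1.61 leaving out 1 library. TRAJ12 not divided by the listed share (−0.00651), valine with all residues (0.0340) and TRAV3D-3 TRAJ24 counted once (0.0908) turned sign. The cause of these changes was not tested. V-J pairs, recurrent clonotypes and interactions gave 0 calls under every alternative run.

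The replicate numbers were checked as pairs. Same-numbered gut and liver libraries deviated from their tissue means with correlations of 0.221, 0.116 and 0.0868 over TRAV in the 3 genotypes. Over TRAJ the correlations were 0.152, 0.239 and 0.0903. All were low and above 0, and they cannot show whether same-numbered libraries share more than a number. With the replicate block 4 TRAV segments, 3 TRAJ segments (TRAJ52, TRAJ57 and TRAJ39) and 0 residues passed, with TRAV14D-2 at a limma adjusted p of 0.0632 and E at 0.0732. Of the counts and main values recomputed under an alternative, 265 kept their direction and their side of the threshold or stayed within 1.5 times the count, 38 moved further, 16 no longer passed, 1 newly passed and 13 turned sign.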

Other observations

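The beta chains of the same CD8 T cells, joined in a table of their own, showed the replicate numbers of the gut apart as the alpha chains did. The listed share was 53.2 to 58.0% in the 3 gut libraries numbered 2 and 81.5 to 93.8% in the 3 numbered 1. The mean beta CDR3 length was 13.2 to 13.4 residues in gut numbered 2, 13.50 to 13.55 in gut numbered 1 and 13.47 to 13.55 in liver. The lower beta values were thus those of gut numbered 2, where the listed share was lowest, and gut numbered 1 did not lie below liver. The difference between the alpha and beta chains was not tested.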
